A study of Mus musculus with 12 samples.

Results

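The cytosolic ribosomal protein genes encode the proteins of the large and the small subunit of the ribosome outside mitochondria. They were taken by symbol as the protein-coding genes named Rpl or Rps with a number, without the Rps6k kinases, plus Rpsa, Rplp0, Rplp1, Rplp2, and Fau. Genes with a symbol ending in -ps and a number, the form used for pseudogenes, were left out even where annotated as protein-coding. The rule gave 86 genes of 43626 in the count files, 52 of the large subunit and 34 of the small subunit. It used no measured value.

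Ribosomal proteins are made in near-equal amounts, and with ribosomal RNA they form the subunits that decode mRNA and join amino acids. Their mRNAs are among the most abundant in growing cells, and most start with a run of pyrimidines through which mTOR and the RNA-binding protein Larp1 control their translation and stability. In macrophages, activation through TLR4 reshapes both mRNA levels and translation, so mRNA levels of these genes do not give ribosome output.

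BMDMs are macrophages grown from mouse bone marrow. They were cultured for 6 hours with PBS alone, with 3′SL, a sialylated milk sugar that the labels call HMO, at 100 μg/mL, with the bacterial TLR4 agonist LPS at 10 ng/mL, or with both agents. Each of these 4 conditions had 3 libraries. The labels name neither genotype, age, nor donor, so p-values measure only the spread between these libraries, which may be technical. Libraries were stranded and polyA enriched, and 20411741 to 26851890 reads were counted on genes in each.

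All 8 macrophage markers were found, with a summed level of at least 17640 CPM in every library, while the T cell markers stayed at or below 2.81 CPM. The largest part of the macrophage sum came from Lyz2, at 12155 to 15730 CPM. The summed markers of neutrophils ranged from 63.5 to 238 CPM with PBS and from 103 to 466 CPM with LPS, and those of dividing cells from 144 to 609 CPM and from 104 to 283 CPM. Nearly all of the neutrophil sum came from S100a8 and S100a9, at 147 and 316 CPM in LPS replicate 3. Ly6g, Mpo, and Elane reached at most 1.18, 3.44, and 1.38 CPM in any library. The libraries fell into 3 sets of 4 consecutive library numbers, each with 1 library of every condition. The labels do not call these sets a batch. The summed fibroblast markers ranged from 21.6 to 509 CPM within PBS and from 32.9 to 579 CPM within LPS. In every condition the highest sum was in the first library set. Col1a1 was at 208 to 233 CPM in that set and at 8.35 to 33.3 CPM in the others.

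The sequence of these genes limits what short reads can measure. Most have processed pseudogenes, copies of the mRNA in the genome, and reads that align at several places were not counted on a gene. Over the transcripts of the 86 genes, a median of 55.0% of all words of 50 bases also occurred in another gene, and 82 genes shared words with at least 1 pseudogene. Rps27, a small subunit protein, is the plainest case. The first 60 coding bases of Rps27 are shown with those of its intronless copy Rps27rt and its paralog Rps27l, from the GENCODE M21 transcripts, because they show which genes short reads can tell apart. Capitals mark bases that differ from Rps27.
Rps27: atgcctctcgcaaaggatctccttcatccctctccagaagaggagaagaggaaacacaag
Rps27rt: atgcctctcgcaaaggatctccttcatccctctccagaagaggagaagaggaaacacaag
Rps27l: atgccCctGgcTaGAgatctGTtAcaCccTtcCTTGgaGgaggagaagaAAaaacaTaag
The coding sequences of Rps27 and Rps27rt were identical over all 252 bases, whereas Rps27l differed at 18 of the 60 shown. Of the words of Rps27, 98.6% occurred elsewhere, against 13.7% for Rps27l. Over the 12 libraries, 214 reads were counted on Rps27, 8219 on Rps27rt, and 16784 on Rps27l. The low count of Rps27 is therefore not a level of its mRNA that can be compared with other genes. The same holds for the count of Rps27rt, of whose words 91.1% occurred elsewhere.

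Per kilobase of transcript, the highest measured levels belonged to Rplp1 (630 CPM), an acidic protein of the ribosomal stalk, followed by Rpl32 (478 CPM), Rpl41 (447 CPM), Rps15 (434 CPM), and Rpl8 (406 CPM). These 5 genes held 17.4% of all reads on the group. The 83 genes that passed the filter on low counts spanned 0.781 to 630 CPM per kilobase, with a median of 69.7. The median was 22.5 CPM per kilobase for the 15 genes with at least 80% shared words, 75.8 for the 58 with 20% to 80%, and 141 for the 10 with less than 20%. Across the 83 genes, Pearson's r between shared words and log2 level was -0.34, a description over genes that share their libraries. Both measures depend on the transcript taken for a gene, here that with the longest coding sequence and, among equals, the shortest. That of Rps20 had 3706 bases and 7.57% shared words, and other choices of transcript were not tried.

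**Figure D1:**
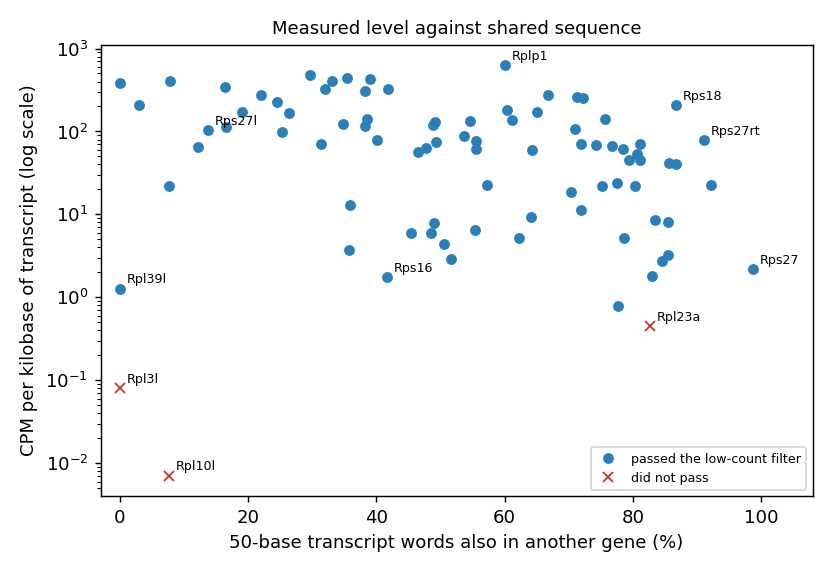
Mean level of each of the 86 ribosomal protein genes over the 12 libraries (CPM per kilobase of transcript, log axis) against the percent of 50-base transcript words found in another gene, with crosses for the 3 genes that did not pass the filter on low counts. Levels at the same shared percent differ widely, and Rps27 lies at 98.6% shared words with 2.19 CPM per kilobase.

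The 3 genes below that filter were paralogs or had mostly shared sequence. Rpl10l and Rpl3l, paralogs of Rpl10 and Rpl3, had 2 and 32 reads over the 12 libraries, and Rpl23a had 72 with 82.6% shared words. Rps4l, the paralog listed for Rps4x, is annotated as a pseudogene and was not counted as a member.

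The first comparison asked how LPS changed the mRNA levels of these genes against PBS. As a share of all gene counts they fell from 0.964%, 0.893%, and 0.986% in the PBS libraries to 0.640%, 0.630%, and 0.528% in the LPS libraries. The groups did not overlap. The share was 0.948% ± 0.0490 (SD, n = 3) with PBS and 0.599% ± 0.0621 (SD, n = 3) with LPS. In the same libraries, alignments at several places came to 37.1% to 40.2% of gene counts with PBS and 42.9% to 45.2% with LPS, and their part in the share was not tested.

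Whether this is a fall of these mRNAs depends on the scaling. TMM scaling sets the bulk of genes to no change, and its factors were 1.21 to 1.30 for PBS and 0.700 to 0.876 for LPS. With TMM scaling the summed level was 7558 ± 537 CPM (SD, n = 3) with PBS and 7505 ± 170 CPM (SD, n = 3) with LPS, and the libraries overlapped. Scaled by total gene counts, it was 9475 ± 490 CPM (SD, n = 3) and 5994 ± 621 CPM (SD, n = 3), without overlap.

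**Figure D2:**
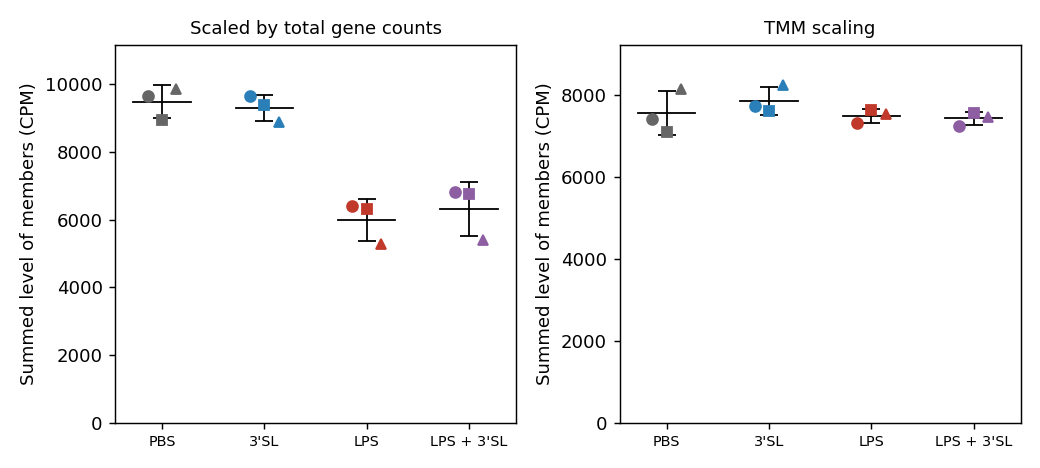
Summed level of the 86 ribosomal protein genes in each library (CPM), scaled by total gene counts (left) and by TMM (right), with circles, squares, and triangles for replicates 1, 2, and 3, and lines and bars for mean and SD of 3 libraries. LPS libraries lie below PBS libraries on the left (5994 against 9475 CPM on average) and overlap them on the right (7505 against 7558 CPM).

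With TMM scaling, 2 of the 83 genes tested were called changed by edgeR (adjusted p below 0.05 and a fold of 1.5 or more), both lower, while 38.5% of all 14308 genes were called and 20.2% were called lower. The median log2 fold change of the group was -0.04, with quartiles at -0.18 and 0.04, against -0.06 over all genes tested. The interquartile range was 0.21 for the group and 1.20 for all genes. With total-count scaling, 59 of the 83 genes were called, all of them lower, against 57.2% of all genes called and 46.5% called lower. The group's median was then -0.70 and that of all genes -0.71. The group's median thus lay 0.018 above that of all genes with TMM scaling and 0.015 above it with total counts. The share of members called was 2.41% with TMM scaling, below the background, and 71.1% with total counts, above it.

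**Figure D3:**
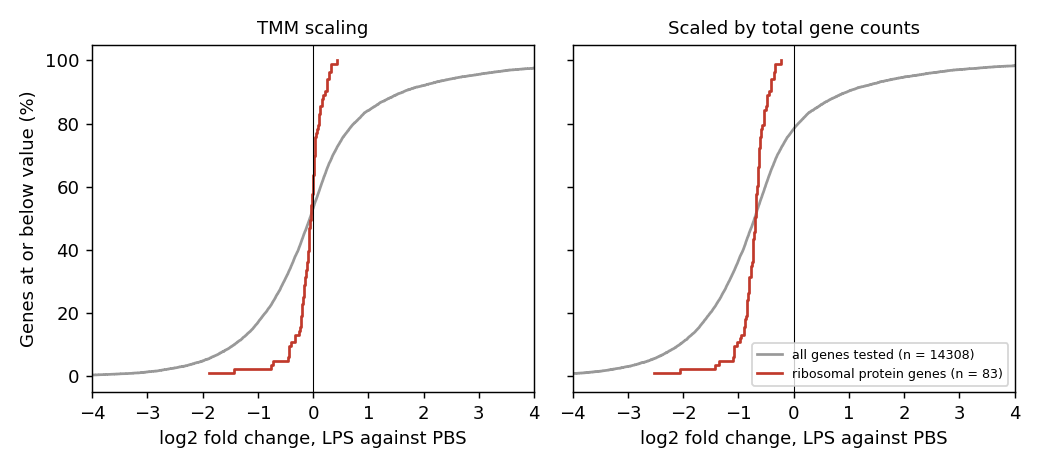
Cumulative percent of genes by log2 fold change of LPS against PBS, for the 83 ribosomal protein genes tested (red) and all 14308 genes tested (gray), with TMM scaling (left) and total-count scaling (right). The red curve is steep and crosses the gray curve near its middle, at medians of -0.04 and -0.06 on the left and of -0.70 and -0.71 on the right.

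The 2 genes called with TMM scaling encode large subunit proteins at the flexible stalks. Rpl10a, ENSMUSG00000037805 on chromosome 17 from 28328471 to 28331033 (GRCm38, plus strand), encodes the protein of the stalk beside the exit site for tRNA. Its level was 26.9, 20.6, and 42.2 CPM with PBS and 7.57, 7.99, and 8.78 CPM with LPS. Every LPS library lay below every PBS library, 3.69-fold on average (log2 fold change -1.88, SE 0.30, adjusted p = 0.00039 by edgeR). Rpl12, ENSMUSG00000038900 on chromosome 2 from 32961559 to 32965345 (GRCm38, plus strand), encodes a protein at the base of the acidic stalk. Its level was 11.2, 10.7, and 18.9 CPM with PBS and 5.96, 5.71, and 3.31 CPM with LPS, again without overlap (log2 fold change -1.44, SE 0.31, adjusted p = 0.0029 by edgeR). Within the 3 library sets the log2 ratios were -1.83, -1.36, and -2.26 for Rpl10a and -0.91, -0.91, and -2.51 for Rpl12. Without the third library set, the values were -1.60 for Rpl10a and -0.90 for Rpl12, and both were still called. Both genes share words with pseudogenes, 77.5% for Rpl10a and 49.0% for Rpl12. Exons of each overlap a gene on the other strand, Lrsam1 in the case of Rpl12, and whether the counting used the strand is not given in the sources used here.

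Without the fold minimum, 15 of the 83 genes passed in this comparison with the library sets as a block, a count without a background here. In the fit without the block 7 passed, against 46.6% of all genes. Those besides Rpl10a and Rpl12 moved by less than 1.5-fold, and Rpl13a among them was named after its values were seen. Rpl3, a protein near the catalytic center, was lower at 57.1, 61.4, and 65.3 CPM with PBS and 44.2, 49.8, and 41.1 CPM with LPS (log2 fold change -0.44, SE 0.09, adjusted p = 0.0025 by edgeR). Rpsa, a small subunit protein also known as a laminin receptor, was lower (log2 fold change -0.39, SE 0.11), as was Rpl13a (log2 fold change -0.33, SE 0.11). Rps9, of the small subunit, was higher with TMM scaling, at 247, 242, and 293 CPM with PBS and 313, 346, and 399 CPM with LPS (log2 fold change 0.44, SE 0.14). Its direction turned under total-count scaling, to -0.22, while Rpl10a, Rpl12, Rpl3, Rpsa, and Rpl13a stayed lower.

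**Figure D4:**
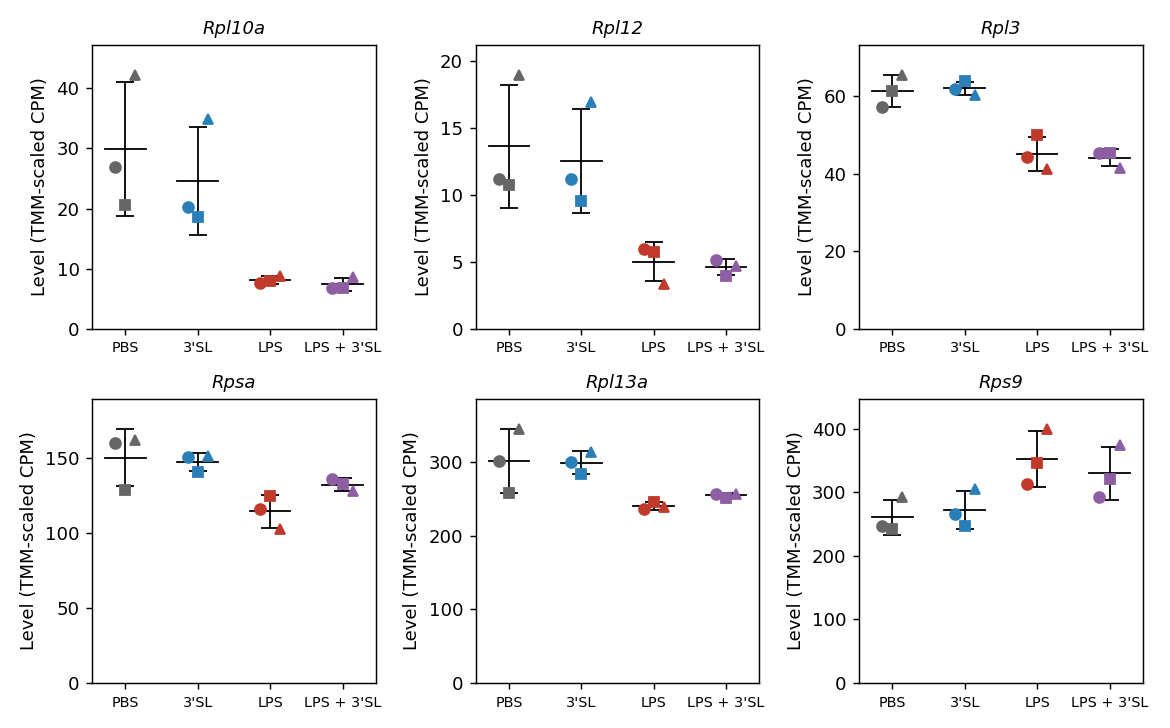
Level of 6 ribosomal protein genes in each library (TMM-scaled CPM), with circles, squares, and triangles for replicates 1, 2, and 3, and lines and bars for mean and SD of 3 libraries. Rpl10a falls from 29.9 CPM with PBS to 8.11 CPM with LPS on average, and Rps9 lies at 261 and 353 CPM.

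The start regions of Rpl10a and Rpl12, the 2 genes called, and of Rps9, the member with the highest fold change, are shown because pyrimidine runs at the start mark the mRNAs of this family. Each window covers 15 bases before to 15 bases after the annotated start, from RefSeq on GRCm38.p6, on the strand of the gene, and capitals mark the longest run of C and T.
Rpl10a (chr17:28328456-28328485): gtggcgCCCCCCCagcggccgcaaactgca
Rpl12 (chr2:32961697-32961726): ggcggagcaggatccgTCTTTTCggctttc
Rps9 (chr7:3704026-3704055): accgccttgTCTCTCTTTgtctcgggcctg
A run of at least 8 C or T was found in such windows of 26 of the 66 members with an entry (39.4%) and in 11.9% of the windows of all 27025 genes. The runs of Rpl10a and Rpl12 had 7 bases and that of Rps9 had 9. The run shown for Rpl10a ended before the annotated start, so it lay outside the annotated mRNA. That of Rpl12 lay just after the start and that of Rps9 across it. Runs were counted anywhere in the window, also wholly before the start. The 39.4% and 11.9% are therefore not shares of mRNAs that begin with pyrimidines. An annotated start can lie some bases from the start used in these cells.

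The acidic stalk proteins and Fau showed no call with TMM scaling in this comparison. Rplp0, the stalk's anchor, was at 428 ± 40.4 CPM (SD, n = 3) with PBS and 412 ± 8.10 CPM (SD, n = 3) with LPS. Rplp1 and Rplp2, the stalk's paired proteins, had log2 fold changes of -0.09 (SE 0.13) and 0.01 (SE 0.15). Fau, whose product is cleaved into a ubiquitin-like part and a small subunit protein, had -0.19 (SE 0.27).

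Paralogs measured beside their parent genes did not pass the test either. Rpl22l1 had a log2 fold change of 0.29 (SE 0.30) and Rpl22 of -0.15 (SE 0.10), Rpl7l1 of -0.04 (SE 0.10) and Rpl7 of 0.17 (SE 0.08), and Rps27l of 0.04 (SE 0.10). Rpl39l was at 1.52, 0.42, and 0.27 CPM in the PBS libraries, so that its fold change of 0.12 had an SE of 1.23. Rpl36a, with 85.5% shared words, had -0.73 (SE 0.34), and Rpl36al had -0.03 (SE 0.12).

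The second comparison asked what 3′SL did without LPS. No gene was called by edgeR, 0% of the 14308 tested and 0 members, and before adjustment 2 members and 1439 genes had a p below 0.05. The Wald test of DESeq2 called 88 genes and no member, and edgeR with the library sets as a block called 406 genes and no member. The median log2 fold change of the members was 0.07 and that of all genes 0.00, and 59 of 83 members were higher. The largest value was that of Rpl10, at 14.0, 15.2, and 19.3 CPM with PBS and 19.3, 20.3, and 28.5 CPM with 3′SL (log2 fold change 0.49, SE 0.18, adjusted p = 0.43 by edgeR). With the library sets as a block, Rpl10 alone among the members passed the adjusted p, under the fold minimum (log2 fold change 0.48, adjusted p = 0.028 by edgeR). Rps6, the substrate of the S6 kinases, had 0.40 (SE 0.31), and the lowest values were -0.51 (SE 1.24) for Rpl39l and -0.41 (SE 0.45) for Rps16. With total-count scaling the members' median was -0.02.

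The third comparison asked whether 3′SL changed these mRNAs in the presence of LPS. Again 0% of all genes and 0 members were called by edgeR, with 0 members and 995 genes at a p below 0.05 before adjustment, and the Wald test of DESeq2 called 113 genes and no member. With the library sets as a block, edgeR called 207 genes and no member. The share of gene counts was 0.682%, 0.675%, and 0.541% with LPS + 3′SL, which overlaps the range with LPS alone. Within each library set it was higher than with LPS alone, at 0.640%, 0.630%, and 0.528%. The summed level with TMM scaling was instead lower within each set. It was 7259, 7576, and 7474 CPM with LPS + 3′SL and 7318, 7650, and 7547 CPM with LPS. Neither difference was tested. The members' median log2 fold change was -0.04 with TMM scaling and 0.05 with total counts. Rps27 had the lowest value (-0.67, SE 0.64) and Rps23 the next (-0.55, SE 0.27), and Rpl28 (0.35, SE 0.28) and Rpsa (0.21, SE 0.11) had the highest.

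The fourth comparison set LPS + 3′SL against 3′SL, which is the LPS effect with the sugar present. Of the 83 members, 4 were called with TMM scaling, all lower, against 29.2% of all genes called and 14.8% called lower. With the library sets as a block 7 members were called, but the share of all genes called in that fit is not given here. That count is therefore not read as a result about the members. Rpl10a was at 20.3, 18.6, and 34.9 CPM with 3′SL and 6.79, 6.71, and 8.63 CPM with LPS + 3′SL (log2 fold change -1.74, SE 0.29, adjusted p = 0.00095 by edgeR). Rpl12 was at 11.2, 9.51, and 16.9 CPM and 5.14, 3.95, and 4.66 CPM (log2 fold change -1.45, SE 0.31, adjusted p = 0.0038 by edgeR). Both groups were without overlap for both genes. Rpl36a (-1.01, SE 0.34, adjusted p = 0.041 by edgeR) and Rps27a, a ubiquitin fusion of the small subunit (-0.73, SE 0.26, adjusted p = 0.048 by edgeR), kept the call in 3 and 2 of the 12 fits that left out 1 library, with values of -0.74 and -0.52 without 3′SL replicate 3. Rpl12 lost it without the second library set (-1.51, adjusted p = 0.051 by edgeR). Without the fold minimum 7 members passed, against 36% of all genes, and 17 with the library sets as a block. The 17 have no background here either. With total counts 40 members were called, all lower, against 43.4% of all genes called and 33.9% called lower. This comparison and that of LPS with PBS share no library, but they are not independent. Both come from the same fit, with a common estimate of the spread, and from the same library sets. Rps9 (0.28, SE 0.14) and Rpl29 (0.24, SE 0.13) had the highest values and passed no threshold.

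The interaction of LPS and 3′SL, which asks whether the LPS effect differs with the sugar, was called in 0% of genes by edgeR and in 0 members, with 0 members and 872 genes at a p below 0.05 before adjustment. The Wald test of DESeq2 called 44 genes and no member, and edgeR with the library sets as a block called 222 genes and no member. The members' median was -0.13, with 61 of 83 below 0, and -0.01 over all genes. The lowest values were -0.91 (SE 0.56) for Rps29 and -0.80 (SE 0.87) for Rps27, and the highest were 0.48 (SE 0.39) for Rpl28 and 0.41 (SE 0.65) for Rps16. With total-count scaling the members' median was 0.06 and that of all genes 0.17.

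Other genes of protein synthesis give the setting for LPS against PBS with TMM scaling. Of 30 ribosome biogenesis genes, which build subunits in the nucleolus, 20 were called, 19 lower and 1 higher, with a median log2 fold change of -0.87. Polr1b, a subunit of RNA polymerase I, fell most (-2.11, SE 0.34), and Wdr43 rose (0.97, SE 0.18). Of 76 mitochondrial ribosomal protein genes tested, 25 were called, 19 lower and 6 higher, with Mrpl52 at 1.96 (SE 0.31) and Mrpl41 at -1.81 (SE 0.27). Of 19 translation control and mTOR genes tested, 10 were called, 7 lower and 3 higher. Larp1 rose from 189 ± 37.3 CPM (SD, n = 3) to 624 ± 104 CPM (SD, n = 3), and Eef2k, the kinase of elongation factor eEF2, fell (-2.44, SE 0.33). Of 21 elongation and associated factors tested whose mRNAs carry pyrimidine starts, 5 were called, all lower, and Pabpc1 had the highest value (0.34, SE 0.14), which did not pass. The background for these counts is the 38.5% of all genes called. With total-count scaling, against 57.2% of all genes, 29 of the 30 biogenesis genes were called, all lower, and Wdr43 was not called. In the same way 61 of the 76 mitochondrial genes were called, 2 of them higher, 14 of the 19 translation control genes, 2 of them higher, and 17 of the 21 elongation and associated factors, all lower. The summed markers of dividing cells, given above, were also lower with LPS than with PBS in each of the 3 library sets, and their part in the biogenesis counts was not tested. In the third set Mki67 went the other way, at 56.1 CPM with PBS and 67.8 CPM with LPS. Top2a, Ccnb1, Cdk1, and Birc5 were lower there.

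Among 7999 other genes with a mean of at least 10 CPM, those whose level ran most like the members' mean log2 level over the 12 libraries were Gtpbp4 (Pearson's r 0.95), Uspl1 (0.92), Stk10 (0.92), a gene without a symbol in the annotation used (0.92), and Atf5 (0.90). These values describe 12 libraries that share conditions and sets. The members' mean was highest in replicate 3 with PBS and with 3′SL, at 5.38 and 5.40, against 5.03 to 5.22 in the other libraries. The members' median log2 level lacked this step, at 5.92 and 5.94 in these libraries and 5.66 to 5.92 in the others.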

How the data were processed

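RNA-Seq of BMDMs was analysed for 12 libraries in 4 conditions taken from the labels. The authors deposited raw counts per gene, as whole numbers without normalization. Per the submitters' processing notes the tools were FastQC, Trimmomatic, STAR, HTSeq, and DESeq2. Versions, genome build, and the use of strand in counting are not given in the sources used here. Doses and hours come from the paper, since the labels describe injections of mice. Of 43626 identifiers, 42548 matched the GENCODE M21 annotation of GRCm38.

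Counts were fitted over all 12 libraries in R 4.3.3 with edgeR 4.0.16 (filterByExpr, TMM factors, quasi-likelihood test, Benjamini-Hochberg adjustment over 14308 genes), and calls needed a fold of 1.5 or more with an adjusted p below 0.05. Total-count scaling, DESeq2 1.42.0, other filters, the library sets as a block, and leaving out each library were alternatives. Leaving out each library set, and the block without the fold minimum, were added after seeing the data. Pairs of libraries of a condition differed by more than sampling noise, so each counted as 1 replicate.

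Named were called members, the 2 highest and 2 lowest per comparison, the 5 members outside the numbered symbols, paralog pairs, the 5 highest per kilobase, and members that failed the filter. Members and lists were chosen with earlier results of these data known. Counting precision is limited for members with few reads, and intervals were not given. Some genes are not reported here.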

Additional observations from a re-analysis of the deposited data

Results flagged for a closer look

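Alignments at several places, which were not counted on any gene, were more frequent in every library of the 3 treated conditions than in any PBS library. As a percent of gene counts they averaged 41.6% with 3′SL, 43.7% with LPS, and 43.1% with LPS + 3′SL, against 39.2% with PBS. The difference was not tested, and the part of ribosomal protein genes in these alignments cannot be read from gene counts.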

How the results depend on the processing

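The number of members called in LPS against PBS was 2 in the fit reported, 59 with total counts, 62 with total counts and the library sets as a block, and 7 without the fold minimum. Leaving out each library gave 2 to 3. In LPS + 3′SL against 3′SL it was 4, and 40 with total counts, 43 with total counts and the sets as a block, 7 with the sets as a block, 7 without the fold minimum, and 2 with all genes of at least 1 count. It was 2, 1, and 2 without library sets 1, 2, and 3, and 2 to 4 without single libraries, the lowest without LPS replicate 1, LPS + 3′SL replicate 1, PBS replicate 2, or 3′SL replicate 3. Shares of all genes beside these counts are given above only for the fit reported, total counts, and no fold minimum. The other counts have no background here. No alternative called a member in the other comparisons, though with the sets as a block and no fold minimum together, Rpl10 passed in 3′SL against PBS.

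The members' median log2 fold change in LPS against PBS, -0.04, became -0.70 with total counts and -0.70 with the sets as a block besides. It was 0.043 without library set 3 and 0.059 over the members with less than 20% shared words, and -0.11 to 0.064 without single libraries. In 3′SL against PBS it was -0.022 and -0.024 with total counts, without and with the block, and -0.038 to 0.14 without single libraries. In LPS + 3′SL against LPS it was 0.049 and 0.047 in the same way. In LPS + 3′SL against 3′SL it was -0.60 and -0.61, -0.20 without library set 2, -0.038 without library set 3, -0.020 with shared sequence left out, and -0.18 to -0.049 without single libraries. The interaction's median was 0.056 and 0.053 with total counts, and -0.21 to -0.038 without single libraries. The cause of these shifts was not tested, beyond the scaling itself.

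These named members changed direction under an alternative. Without library set 3, the direction turned to 0.12 for Fau, 0.13 for Rpl36al, 0.20 for Rpl41, 0.094 for Rpl7l1, 0.021 for Rplp0, 0.053 for Rplp1, and 0.25 for Rps27 in LPS against PBS. Scaled by total counts, the direction turned to -0.33 for Rpl22l1, -0.36 for Rpl24, -0.63 for Rpl32, -0.59 for Rpl39, -0.48 for Rpl39l, -0.49 for Rpl7, -0.65 for Rplp2, -0.61 for Rps27l, -0.54 for Rps4x, and -0.22 for Rps9 in LPS against PBS, and to -0.23 for Rpl29, and -0.21 for Rps9 in LPS + 3′SL against 3′SL. With total counts and the library sets as a block, the direction turned to -0.39 for Rpl22l1, -0.37 for Rpl24, -0.64 for Rpl32, -0.59 for Rpl39, -0.85 for Rpl39l, -0.49 for Rpl7, -0.65 for Rplp2, -0.62 for Rps27l, -0.55 for Rps4x, and -0.22 for Rps9 in LPS against PBS, and to -0.24 for Rpl29, and -0.21 for Rps9 in LPS + 3′SL against 3′SL. With all genes of at least 1 count, the direction turned to -0.0045 for Rpl32, and -0.014 for Rplp2 in LPS against PBS. Without library set 2, the direction turned to -0.018 for Rpl32 in LPS against PBS. With DESeq2's size factors in edgeR, the direction turned to 0.015 for Rpl36al, 0.030 for Rpl41, and 0.0071 for Rpl7l1 in LPS against PBS. With the Wald test of DESeq2, the direction turned to 0.016 for Rpl36al, 0.030 for Rpl41, and 0.0074 for Rpl7l1 in LPS against PBS. With the library sets as a block, the direction turned to -0.22 for Rpl39l in LPS against PBS. With at least 10 counts in every library, the direction turned to -0.0012 for Rplp2 in LPS against PBS. With only the conditions compared, the direction turned to -0.000737 for Rplp2 in LPS against PBS. Without library set 1, the direction turned to -0.043 for Rplp2 in LPS against PBS. Over the fits that left out 1 library, log2 fold changes that crossed 0 ranged from -0.39 to 0.087 for Fau, from -0.21 to 0.030 for Rpl10, from -0.33 to 0.72 for Rpl24, from -0.0081 to 0.055 for Rpl32, from -0.11 to 0.093 for Rpl36al, from -0.078 to 0.16 for Rpl39, from -1.89 to 1.21 for Rpl39l, from -0.15 to 0.15 for Rpl41, from -0.094 to 0.062 for Rpl7l1, from -0.12 to 0.021 for Rplp0, from -0.17 to 0.052 for Rplp1, from -0.092 to 0.17 for Rplp2, from -0.61 to 0.34 for Rps27, and from -0.0030 to 0.081 for Rps27l in LPS against PBS, and from -2.19 to 0.58 for Rpl39l, and from -0.91 to 0.13 for Rps16 in 3′SL against PBS, and from -0.13 to 0.92 for Rps16 in the interaction of LPS and 3′SL.

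The labels carry no replicate numbers, so replicates are named in accession order and no pairing comes from the labels. The library sets were found in the data, where the mean correlation of residuals was 0.60 within sets and -0.35 between them. With the sets as a block, edgeR called 406 genes in 3′SL against PBS, 207 in LPS + 3′SL against LPS, and 222 in the interaction, where the fit without it called 0, and no member in any of the 3. Members with few unique reads, such as Rps27 with 214 over all libraries, cannot show small changes at this depth, and counting error alone is covered by their read counts.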
